A study of Mus musculus with 8 samples.

Results

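The genes described here build and organise the sarcomere, the contractile unit of striated muscle: the titin and nebulin scaffold, the M-band, the Z-disc, the proteins that attach actin at either end, the myosin light chains, and the chaperones and ubiquitin ligases of filament assembly. The list held 53 genes, chosen by name for their place in the sarcomere. Each was read from a probe set annotated to that gene alone, and from the one with the highest mean over the 8 arrays where there were several. Such a probe set was found for 52 of the 53 genes, Mybph being without one, among 22180 genes in all. After genes with a mean log2 level below 2.30 were left out, 50 of the 52 and 13308 genes in all were tested, Myoz3 and Myl3 being below that level.

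The cells were C2C12, a mouse myoblast line that fuses into multinucleate myotubes in culture. Myoblasts received a retrovirus expressing shRNA targeting Baf60c, the product of Smarcd3 and a component of BAF chromatin remodelling complexes (SiBc, called knockdown here), or a scrambled control (Scrb, called control). Whether the knockdown used 1 hairpin or several is not given in the sources used here. After differentiation, the myotubes were held for 12 h in 10 mM or in 1 mM glucose, so the groups were knockdown at 10 mM, control at 10 mM, knockdown at 1 mM and control at 1 mM, each with 2 independent biological replicates measured on Affymetrix Mouse Gene ST 2.1 arrays. All groups share the line, the transduction and the differentiation, and a series title on glucose sensing by muscle cells gives the question: how glucose and Baf60c bear on the transcripts of myotubes.

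In a sarcomere, thin filaments of actin are anchored at the Z-disc by alpha-actinin and thick filaments of myosin are tied together at the M-band by myomesins. Titin runs from the Z-disc to the M-band and nebulin lies along the thin filament. As myoblasts fuse and mature, nascent fibrils with little order become aligned sarcomeres, which needs myosin chaperones, actin-capping proteins and regulated protein turnover, and many of these genes are switched on together by the myogenic factors, MEF2 and serum response factor.

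Arrays of 1 group correlated over the tested genes at 0.987 to 0.990, and arrays of different groups at 0.939 to 0.984. The knocked-down gene shares its probe set with Chpf2, so it was checked through that shared set only. Its log2 levels were 3.90 and 4.49 in knockdown and 6.27 and 6.09 in control myotubes at 10 mM, and 3.01 and 2.77 in knockdown and 5.62 and 5.40 in control myotubes at 1 mM. The set was lower in both knockdown groups (log2 change −1.98 ± 0.22 at 10 mM, limma adjusted p = 0.0171, and −2.62 ± 0.22 at 1 mM, adjusted p = 0.00313). It was also higher at 10 mM than at 1 mM glucose within knockdown myotubes (1.31 ± 0.22, adjusted p = 0.00442), and the part of that difference in the results below was not tested. All 10 myotube markers were tested and none had a group mean below a log2 level of 3.

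The same groups were lowest and highest for most of the set. Knockdown at 1 mM had the lowest mean of the 4 groups for 44 of the 50 tested genes, and control at 10 mM the highest for 41, with both holding for 39. Over all tested genes, knockdown at 1 mM was lowest for 28% and control at 10 mM highest for 24.3%. The 2 middle groups were split: 21 genes had knockdown at 10 mM above control at 1 mM, and 18 had the reverse order between the same extremes. Both knockdown arrays at 10 mM lay below both control arrays at 1 mM for 15 of 50 genes (33.9% of all tested genes), among them Ttn, Neb, Myom1, Myom2, Myoz2, Pgm5, Acta1, Myl4 and Smyd1. They lay above them for 21 of 50 (33.1% of all tested genes), among them Actn3, Ldb3, Tcap, Csrp3, Pdlim3, Mypn, Des, Abra, Tmod1 and Klhl41. Both counts are near the share over all genes, so the order of the middle groups is given as a description only, and in cultures of mixed cells a smaller share of myotubes and less RNA per myotube cannot be told apart.

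**Figure D1:**
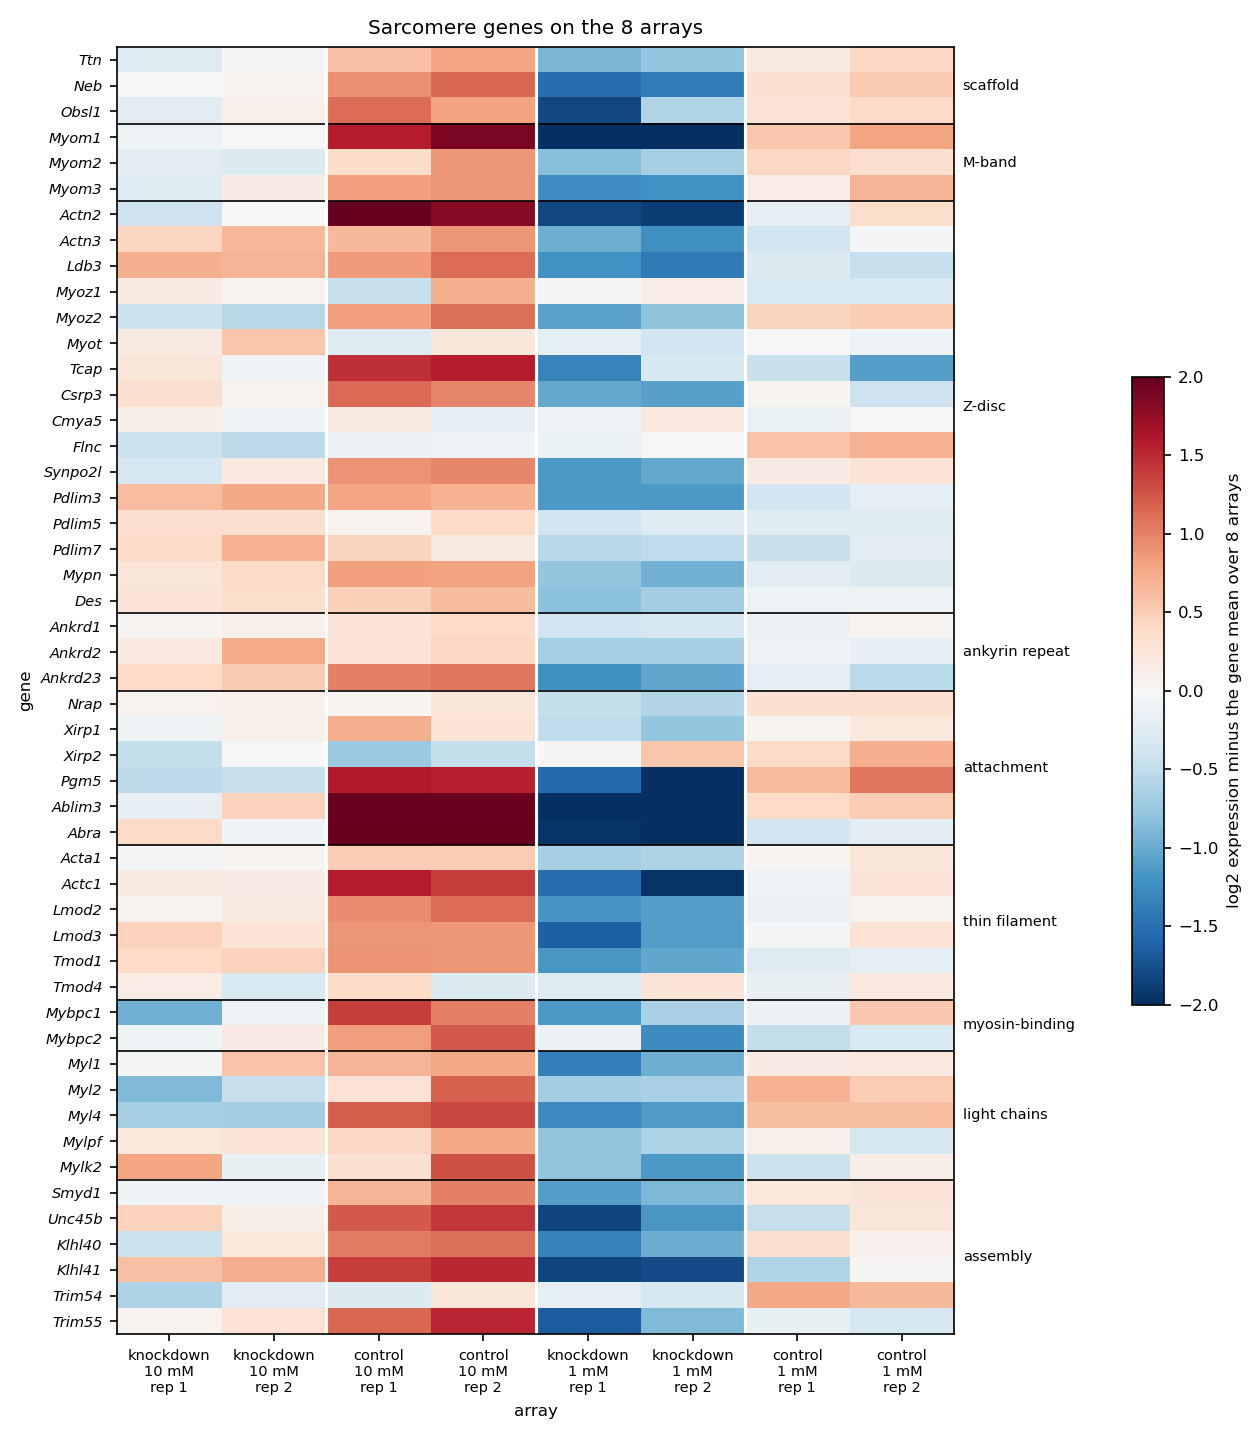
Log2 expression of the 50 tested genes on the 8 arrays (columns, by group and replicate), each gene shown as its difference from its own mean over the arrays, with colours saturating at −2 and 2. Genes run down the page by role, and the knockdown arrays at 1 mM are the lowest for most rows and the control arrays at 10 mM the highest.

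Because many of these genes were lower in the same group, the 250 bases upstream of their RefSeq starts (build GRCm38.p6) were searched on both strands for motifs known in muscle promoters. Of the 53 genes, 40 had a promoter entry, and the comparison set was 27025 genes. The E-box CANNTG, bound by myogenic factors, was present upstream of 33 of 40 (82.5%, against 69.3% of all genes), and its CAGCTG form, which is one of the CANNTG sites, in 16 (40% against 14.72%). The MEF2 core, CTA and TAG 4 bases apart, was found in 8 (20.0% against 3.7%), the MCAT element CATTCC, bound by TEAD factors, in 12 (30.0% against 14.36%), and the CArG box of serum response factor in 5 (12.5% against 1.624%). The classes that follow count only genes with a promoter entry, which Ablim3, Abra and Neb, called lower at both glucose levels, did not have. The CArG box was held by 2 of 8 genes called lower after knockdown at both glucose levels. It was held by 2 of 11 called lower at 1 mM and not at 10 mM, and by 0 of 19 that were tested and not called lower. The MEF2 core was held by 1, 4 and 3 genes of the same classes. The E-box was held by 5, 9 and 17, its CAGCTG form by 2, 7 and 6, and the MCAT element by 0, 4 and 6. The motifs did not share 1 direction over these small classes, and no difference between classes was tested. These are matches of letters, with no measure of binding. The 5 upstream sequences that follow belong to genes that were lower after knockdown and hold a CArG box or MEF2 core, and have 1 listed start. Ttn, with a MEF2 core at −166, meets the same conditions and is not printed. Capitals mark matches to the CAGCTG form of the E-box, the MCAT element, the MEF2 core and the CArG box, and each sequence runs 5′ to 3′ on the strand of its gene and ends at the base before the start. Acta1 lies at chr8:123894776-123895025 (minus strand), Actc1 at chr2:114052876-114053125 (minus), Myom1 at chr17:71019307-71019556 (plus), Myoz2 at chr3:123034988-123035237 (minus) and Klhl41 at chr2:69669870-69670119 (plus).
Acta1: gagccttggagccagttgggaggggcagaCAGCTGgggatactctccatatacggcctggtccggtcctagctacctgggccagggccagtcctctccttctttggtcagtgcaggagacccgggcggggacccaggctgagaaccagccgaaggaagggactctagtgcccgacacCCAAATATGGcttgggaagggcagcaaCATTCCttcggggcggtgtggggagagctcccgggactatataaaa
Actc1: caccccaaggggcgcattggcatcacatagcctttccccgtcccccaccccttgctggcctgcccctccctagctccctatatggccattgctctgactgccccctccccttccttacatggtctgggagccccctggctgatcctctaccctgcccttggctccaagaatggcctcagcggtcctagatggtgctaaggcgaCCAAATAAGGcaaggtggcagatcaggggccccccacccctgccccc
Myom1: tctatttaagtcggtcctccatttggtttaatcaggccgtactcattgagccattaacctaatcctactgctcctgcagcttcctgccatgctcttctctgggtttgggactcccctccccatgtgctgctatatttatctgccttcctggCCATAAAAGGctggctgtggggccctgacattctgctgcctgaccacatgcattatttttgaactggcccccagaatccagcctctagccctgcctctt
Myoz2: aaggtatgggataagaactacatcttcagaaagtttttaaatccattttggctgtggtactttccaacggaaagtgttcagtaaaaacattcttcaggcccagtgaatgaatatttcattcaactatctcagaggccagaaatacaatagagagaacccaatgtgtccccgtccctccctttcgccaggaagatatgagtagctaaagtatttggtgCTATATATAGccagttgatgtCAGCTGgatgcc
Klhl41: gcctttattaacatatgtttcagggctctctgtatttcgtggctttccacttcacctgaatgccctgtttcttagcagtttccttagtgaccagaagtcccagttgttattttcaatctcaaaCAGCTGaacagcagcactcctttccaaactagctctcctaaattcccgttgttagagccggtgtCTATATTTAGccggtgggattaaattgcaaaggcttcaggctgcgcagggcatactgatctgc

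Counted from the annotated RefSeq start, the CArG box begins at −73 in Acta1, −47 in Actc1 and −99 in Myom1, and the MEF2 core at −33 in Myoz2 and −63 in Klhl41.

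Knockdown against control asks which transcripts depend on Baf60c at each glucose level. At 10 mM, 11 of the 50 tested genes were lower in knockdown myotubes and 0 were higher (limma, Benjamini-Hochberg adjusted p under 0.05 over 13308 genes), where 0.691% of all tested genes were lower and 0.428% higher. At 1 mM, 24 of 50 were lower and 0 higher, against 1.25% lower and 0.233% higher overall. At an unadjusted p under 0.05 in limma, 32 were lower at 10 mM and 40 at 1 mM, and 0 were higher at either level. Of all 13308 tested genes, 904 were lower and 903 higher at 10 mM at that threshold, and 1278 lower and 837 higher at 1 mM. The median log2 change of the set was −0.68 at 10 mM (0.01 over all genes) and −0.95 at 1 mM (−0.03 over all genes). Both knockdown arrays lay below both control arrays for 37 of 50 genes at 10 mM (21.6% of all genes) and for 44 of 50 at 1 mM (26.9%). The genes lower at both levels made up 100% of the list at 10 mM and 45.8% of the list at 1 mM. The change at 1 mM was the more negative one for 38 of 50 genes, and for 7416 of all 13308 tested genes.

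By role, the genes lower at 10 mM and at 1 mM were 1 and 3 of 3 M-band genes, 2 and 5 of 6 thin filament and capping genes, 3 and 4 of 6 actin attachment genes, and 1 and 2 of 3 scaffold genes. They were 1 and 3 of 6 assembly genes, 1 and 2 of 5 light chain genes and 2 and 5 of 16 Z-disc genes, and 0 and 0 of 3 muscle ankyrin repeat genes and of 2 myosin-binding genes. With 2 arrays a group the counts depended on single arrays. At 10 mM the count was 0 without knockdown replicate 1 or 2 or control replicate 2, and 2 without control replicate 1, while the median change stayed between −0.82 and −0.67 (limma). At 1 mM it was 9 and 10 without knockdown replicate 1 and 2, and 9 and 5 without control replicate 1 and 2. The 2 genes left at 10 mM without control replicate 1 were Myl4 and Myom1, and without any of the other 3 arrays the 8 genes with full statistics at 10 mM had adjusted p of 0.0518 to 0.204 (limma). Of the 8 with full statistics at 1 mM, Myom1, Myl4, Neb, Ablim3 and Pgm5 were called with each array left out. Abra lost its call without control replicate 1 or 2 or knockdown replicate 2 (adjusted p = 0.051, 0.0804 and 0.0553), Myoz2 without control replicate 1 or 2 (0.0545 and 0.0761), and Actc1 without control replicate 2 (0.0651).

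**Figure D2:**
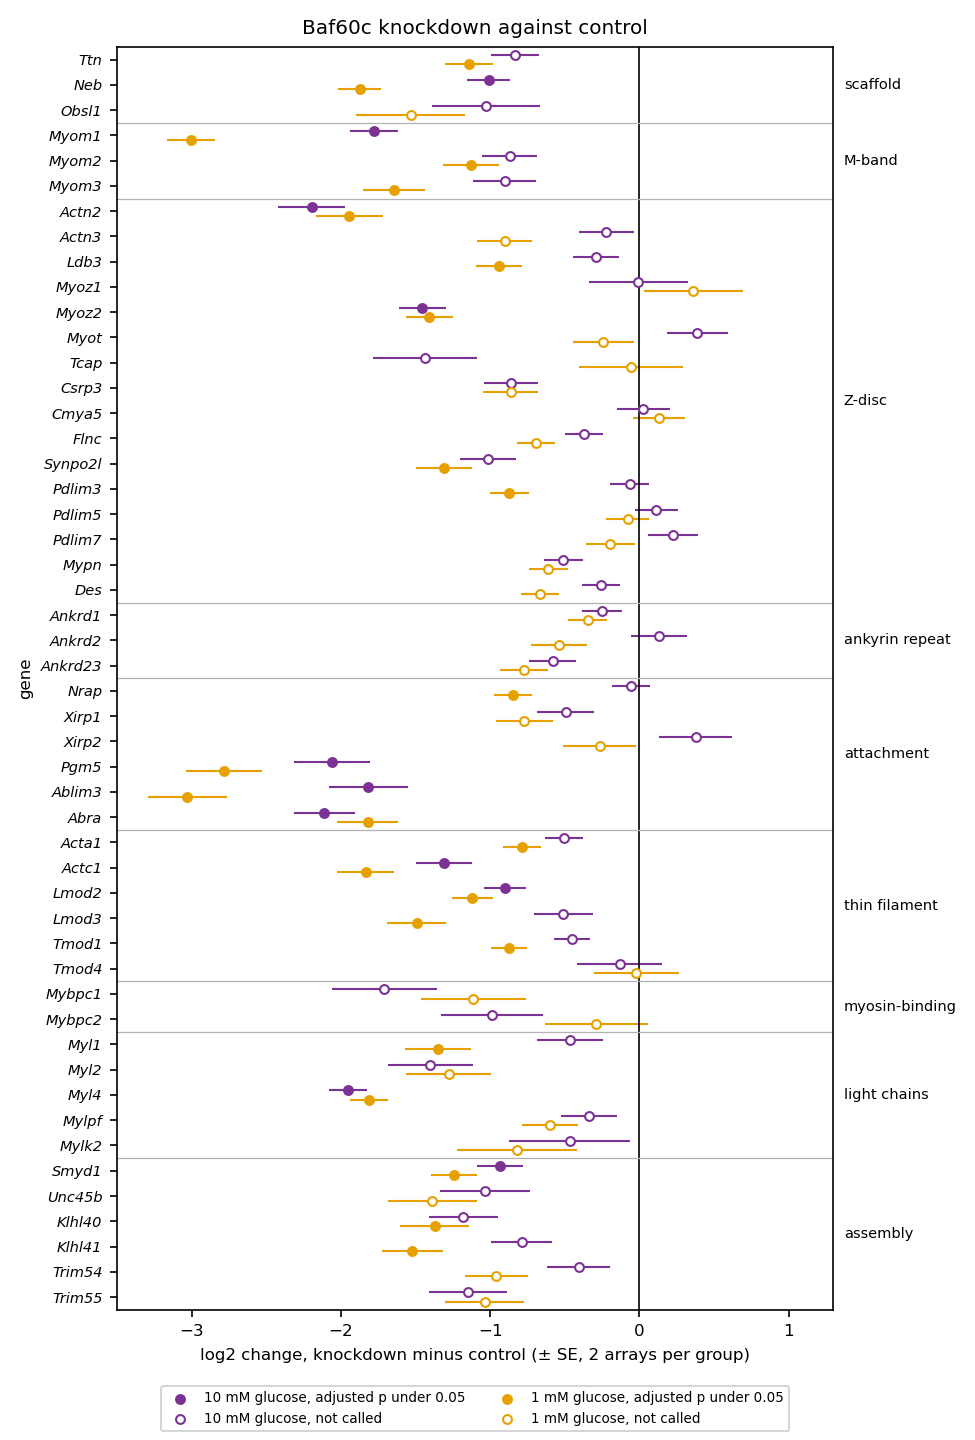
Log2 change in knockdown against control myotubes for each of the 50 tested genes, with its standard error, at 10 mM and 1 mM glucose; filled points passed an adjusted p under 0.05. Of the points, 11 at 10 mM and 24 at 1 mM are filled, and all filled points lie left of 0.

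Among the scaffold genes, nebulin was lower after knockdown at both glucose levels and titin at 1 mM. Neb encodes the giant protein that lies along the thin filament. Neb had log2 levels of 9.12 and 9.16 in knockdown and 10.04 and 10.27 in control myotubes at 10 mM, and of 7.59 and 7.72 in knockdown and 9.42 and 9.64 in control myotubes at 1 mM. The knockdown arrays were below the control arrays at each glucose level, and the 1 mM knockdown arrays stood apart below all others (−1.01 ± 0.15 at 10 mM, limma adjusted p = 0.0332, and −1.87 ± 0.15 at 1 mM, adjusted p = 0.00329). The Neb call at 10 mM gave adjusted p = 0.0557 when no gene was left out for a low level. Ttn encodes titin, the elastic filament from Z-disc to M-band. Log2 levels of Ttn were 9.15 and 9.39 in knockdown and 10.00 and 10.21 in control myotubes at 10 mM, and 8.50 and 8.64 in knockdown and 9.59 and 9.83 in control myotubes at 1 mM. Knockdown arrays were again below control arrays at each level, with a log2 change of −0.83 at 10 mM that was not called (limma adjusted p = 0.066) and −1.14 at 1 mM that was. Obsl1, which encodes a cytoskeletal adaptor related to obscurin, was not called in any comparison. Its changes after knockdown were −1.03 at 10 mM and −1.53 at 1 mM (limma adjusted p = 0.281 and 0.103).

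At the M-band, Myom1 had one of the widest differences of the set. It encodes myomesin 1, which cross-links neighbouring thick filaments. Myom1 gave log2 levels of 5.33 and 5.42 in knockdown against 6.99 and 7.31 in control myotubes at 10 mM, and 3.16 and 3.02 in knockdown against 5.98 and 6.22 in control myotubes at 1 mM. The 4 groups did not overlap, and the knockdown arrays at 1 mM were near the dim end of the scale. The change was −1.78 ± 0.16 at 10 mM (3.43-fold lower, limma adjusted p = 0.0112) and −3.00 ± 0.16 at 1 mM (8.03-fold lower, adjusted p = 0.00207). Myom2 and Myom3, the other myomesins, had changes of −0.87 and −0.90 at 10 mM that were not called, and were lower at 1 mM with changes of −1.13 and −1.64.

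At the Z-disc, the alpha-actinin gene Actn2 and the calsarcin gene Myoz2 were lower at both glucose levels, and Ldb3, Pdlim3 and Synpo2l at 1 mM. Actn2 encodes the protein that cross-links actin filaments of adjoining sarcomeres. For Actn2 the log2 levels were 4.76 and 5.17 in knockdown and 7.32 and 6.99 in control myotubes at 10 mM glucose, and 3.35 and 3.29 in knockdown and 5.0 and 5.53 in control myotubes at 1 mM. Both control arrays at 10 mM were above every other array, and both knockdown arrays at 1 mM were below every other and near the dim end of the scale. The change was −2.20 ± 0.23 at 10 mM (limma adjusted p = 0.0166), and it was −1.94 at 1 mM, also called. Its paralog Actn3 had −0.22 at 10 mM and −0.90 at 1 mM and was not called at either level (limma adjusted p = 0.674 and 0.0715). Myoz2 encodes calsarcin 1, which binds alpha-actinin and calcineurin. Myoz2 had log2 levels of 7.42 and 7.29 in knockdown and 8.66 and 8.95 in control myotubes at 10 mM, and of 6.78 and 7.04 in knockdown and 8.30 and 8.34 in control myotubes at 1 mM. Knockdown arrays at both glucose levels lay below all 4 control arrays (−1.45 ± 0.16 at 10 mM, adjusted p = 0.0175, and −1.41 ± 0.16 at 1 mM, adjusted p = 0.00801). Pdlim3, an alpha-actinin-binding PDZ and LIM protein, had −0.06 at 10 mM, where the groups overlapped, and was lower at 1 mM (−0.87). Desmin (Des), the intermediate filament around the Z-disc, had −0.66 at 1 mM and filamin C (Flnc), an actin cross-linker, −0.69, and neither passed the threshold (adjusted p = 0.0607 and 0.0525).

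Among the genes that attach or signal through actin, Ablim3, Pgm5 and Abra were lower at both glucose levels and Nrap at 1 mM. Ablim3 encodes an actin-binding LIM protein. Log2 levels of Ablim3 were 5.65 and 6.28 in knockdown and 7.79 and 7.77 in control myotubes at 10 mM, and 3.56 and 2.91 in knockdown and 6.20 and 6.32 in control myotubes at 1 mM. The change was −1.82 at 10 mM, which was called, and the knockdown arrays at 1 mM were below all the rest (−3.03 ± 0.26, 8.16-fold lower, limma adjusted p = 0.00348). Those knockdown arrays at 1 mM were near the dim end of the scale, and the size of the change rests on them. Pgm5 encodes aciculin, found with filamin C and Xin proteins at attachment sites. Pgm5 gave log2 levels of 6.40 and 6.47 in knockdown against 8.51 and 8.48 in control myotubes at 10 mM, and 5.37 and 4.62 in knockdown against 7.56 and 7.99 in control myotubes at 1 mM. All 4 knockdown arrays were below all 4 control arrays (−2.06 ± 0.25 at 10 mM, adjusted p = 0.0242, and −2.78 ± 0.25 at 1 mM, adjusted p = 0.00396). Abra, also called STARS, binds actin and raises serum response factor activity through its cofactors. For Abra the log2 levels were 5.52 and 5.05 in knockdown and 7.26 and 7.54 in control myotubes at 10 mM glucose, and 3.18 and 2.86 in knockdown and 4.75 and 4.93 in control myotubes at 1 mM. Its control arrays at 10 mM were the highest and its knockdown arrays at 1 mM the lowest (−2.11 ± 0.21 at 10 mM, adjusted p = 0.0139, and −1.82 ± 0.21 at 1 mM, adjusted p = 0.00837). The Abra arrays of knockdown at 1 mM were also near the dim end of the scale. Of the Xin-repeat genes, Xirp1 had −0.49 at 10 mM and −0.77 at 1 mM (limma adjusted p = 0.321 and 0.112). Xirp2 had 0.38 and −0.26 (adjusted p = 0.568 and 0.651), and neither gene was called after knockdown at either level.

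Of the thin filament genes, Actc1, the cardiac actin that embryonic skeletal muscle also uses, and Lmod2, a leiomodin that lengthens filaments at their pointed end, were lower at both levels. Actc1 had log2 levels of 7.96 and 7.95 in knockdown and 9.35 and 9.17 in control myotubes at 10 mM, and of 6.26 and 5.82 in knockdown and 7.71 and 8.04 in control myotubes at 1 mM. Knockdown arrays were below control arrays at each glucose level (−1.31 ± 0.19 at 10 mM, limma adjusted p = 0.0332, and −1.83 ± 0.19 at 1 mM, adjusted p = 0.00597). With the replicate number as a block, the Actc1 call at 10 mM gave adjusted p = 0.0621. Acta1, the skeletal actin, had −0.50 at 10 mM, not called, and −0.79 at 1 mM, called. The actin genes are near-identical in their coding parts, and how far their probe sets share signal was not tested. Lmod3, which also acts on the pointed end, and the pointed-end cap Tmod1 were called at 1 mM and not at 10 mM, with −1.49 and −0.87, while Tmod4 had −0.02 and was not called.

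On the thick filament, Myl4 was lower at both levels. It encodes the atrial and embryonic essential light chain. Log2 levels of Myl4 were 5.74 and 5.71 in knockdown and 7.61 and 7.74 in control myotubes at 10 mM, and 5.13 and 5.27 in knockdown and 7.01 and 7.01 in control myotubes at 1 mM. The groups of knockdown and control did not overlap at either glucose level, and all 4 knockdown arrays were below all 4 control arrays (−1.95 ± 0.13 at 10 mM, limma adjusted p = 0.00324, and −1.81 ± 0.13 at 1 mM, adjusted p = 0.00329). Myl1, the fast essential light chain, was lower at 1 mM (−1.35). Mylpf, the fast regulatory light chain, was not called after knockdown (−0.34 at 10 mM and −0.60 at 1 mM). The myosin-binding protein Mybpc1, which tunes how cross-bridges form, was dim. Mybpc1 gave log2 levels of 2.02 and 2.91 in knockdown against 4.37 and 3.98 in control myotubes at 10 mM, and 1.84 and 2.32 in knockdown against 2.86 and 3.52 in control myotubes at 1 mM. Its changes of −1.71 at 10 mM and −1.11 at 1 mM were not called (limma adjusted p = 0.0791 and 0.194). Of the assembly genes, Smyd1, a methyltransferase that works with the myosin chaperones, was lower at both levels (−0.93 at 10 mM and −1.24 at 1 mM), and Klhl40 and Klhl41, adaptors of a ubiquitin ligase that stabilise thin filament proteins, at 1 mM (−1.37 and −1.52). The myosin chaperone gene Unc45b had −1.39 at 1 mM and was not called.

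**Figure D3:**
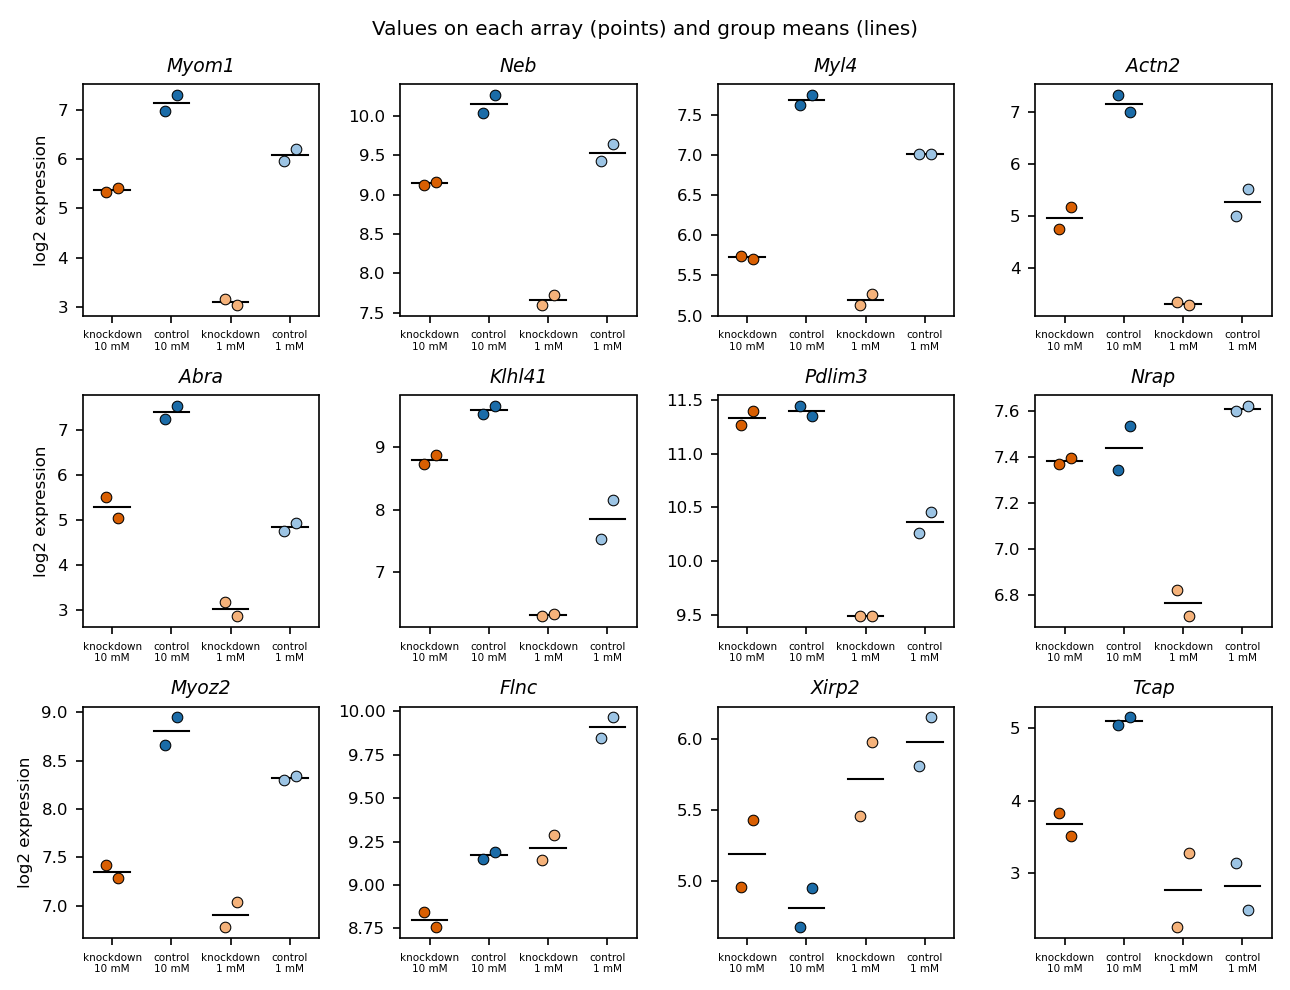
Log2 level of 12 genes on each of the 8 arrays (points) with the mean of each group (lines), by group. The knockdown groups lie below the control groups at the same glucose level for Myom1, Neb, Myl4, Actn2, Abra, Klhl41 and Myoz2, while Pdlim3 and Nrap overlap between knockdown and control at 10 mM, and Flnc and Xirp2 have their highest mean in control at 1 mM.

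Glucose moved a larger share of the array. In knockdown myotubes, 35 of the 50 genes were higher at 10 mM than at 1 mM and 0 were lower, where 14.5% of all tested genes were higher and 10.6% lower. At an unadjusted p under 0.05 in limma, 41 were higher and 1 lower, against 2844 higher and 2129 lower of all 13308 tested genes. In control myotubes 27 of 50 were higher and 3 lower, against 13.2% higher and 12.1% lower overall. The median log2 change of the set was 1.06 in knockdown (0.03 over all genes) and 0.68 in control myotubes (−0.01 over all genes). Both 10 mM arrays were above both 1 mM arrays for 42 of 50 genes in knockdown (34.8% of all genes) and for 40 of 50 in control myotubes (32.3%). Shared rises made up 71.4% of the list in knockdown and 92.6% of that in control myotubes. Acta1, Ankrd1, Ankrd2, Myl1, Myom3, Nrap, Pdlim5, Pgm5, Ttn and Xirp1 were called higher in knockdown and not in control myotubes, and Mybpc2 and Tcap in control and not in knockdown myotubes. The glucose and knockdown comparisons use the same arrays, so a low group enters both. Which of the 2 glucose levels moved away from an ordinary culture cannot be told apart with these groups.

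By role, rises in knockdown and in control myotubes were called for 10 and 10 of 16 Z-disc genes, 5 and 4 of 6 thin filament genes, 5 and 5 of 6 assembly genes, and 5 and 2 of 6 attachment genes. They were called for 3 and 1 of 3 ankyrin repeat genes, 2 and 1 of 3 scaffold genes, 2 and 1 of 3 M-band genes, 3 and 2 of 5 light chain genes, and 0 and 1 of 2 myosin-binding genes. Without control replicate 2 at 10 mM, 17 rises were called in control myotubes in place of 27. The count of lower genes in control was 1 without control replicate 1 at 10 mM or control replicate 2 at 1 mM, and 2 without control replicate 1 at 1 mM (limma).

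**Figure D4:**
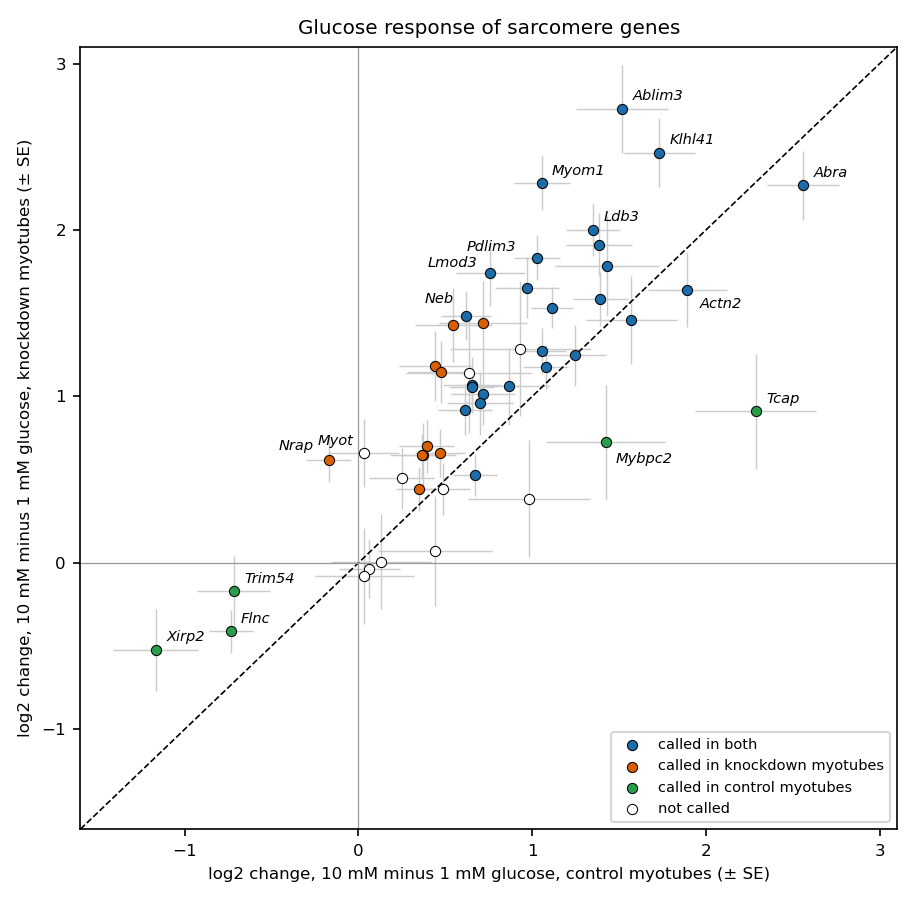
Log2 change at 10 mM against 1 mM glucose in knockdown myotubes (vertical axis) and in control myotubes (horizontal axis) for the 50 tested genes, with standard errors; colours show in which myotubes a gene was called, and the dashed line marks equal changes. Ablim3 and Klhl41 lie highest, Abra and Tcap farthest right, and Xirp2, Flnc and Trim54 at the lower left.

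At the Z-disc, Ldb3, Pdlim3, Mypn and Actn2 were among the genes that rose with glucose in both myotube types. Ldb3 encodes cypher, which ties alpha-actinin to signalling kinases. For Ldb3 the log2 levels were 6.81 and 6.77 in knockdown and 6.94 and 7.21 in control myotubes at 10 mM glucose, and 4.89 and 4.68 in knockdown and 5.83 and 5.63 in control myotubes at 1 mM. The 10 mM arrays were above the 1 mM arrays in both myotube types (2.00 ± 0.15 in knockdown, limma adjusted p = 0.000253, and 1.35 ± 0.15 in control, adjusted p = 0.00116). Pdlim3 had log2 levels of 11.26 and 11.40 in knockdown and 11.44 and 11.35 in control myotubes at 10 mM, and of 9.50 and 9.49 in knockdown and 10.27 and 10.46 in control myotubes at 1 mM. Its knockdown arrays at 1 mM were lowest, and its 10 mM arrays overlapped between knockdown and control (1.83 ± 0.13 in knockdown, adjusted p = 0.000211, and 1.03 ± 0.13 in control, adjusted p = 0.00188). Mypn encodes myopalladin, which links nebulin to alpha-actinin. Log2 levels of Mypn were 4.54 and 4.68 in knockdown and 5.12 and 5.11 in control myotubes at 10 mM, and 3.53 and 3.33 in knockdown and 4.07 and 4.01 in control myotubes at 1 mM. The 10 mM arrays were higher in both (1.08 ± 0.13 in control, adjusted p = 0.0015). Actn2 was 1.89 ± 0.23 higher in control (adjusted p = 0.00138).

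Tcap, which encodes the titin cap telethonin, was singled out after its values were seen. Tcap gave log2 levels of 3.83 and 3.51 in knockdown against 5.05 and 5.16 in control myotubes at 10 mM, and 2.25 and 3.27 in knockdown against 3.14 and 2.49 in control myotubes at 1 mM. The control arrays at 10 mM were above the rest, and the other groups included levels near the dim end of the scale. Its log2 change with glucose in control myotubes was 2.29 (limma adjusted p = 0.00362), a size that rests on a control group at 1 mM with a mean log2 level below 3, and the change in knockdown myotubes (0.91) was not called. Among the muscle ankyrin repeat genes, whose products bind titin and respond to stretch, Ankrd23 rose in both. For Ankrd23 the log2 levels were 8.0 and 8.12 in knockdown and 8.62 and 8.67 in control myotubes at 10 mM glucose, and 6.38 and 6.58 in knockdown and 7.43 and 7.07 in control myotubes at 1 mM. The 10 mM arrays were above the 1 mM arrays without overlap (1.39 ± 0.16 in control, limma adjusted p = 0.0012).

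The actin-associated genes Abra and Ablim3 rose with glucose in both myotube types. From the levels given above, Abra was higher by 2.27 ± 0.21 in knockdown (limma adjusted p = 0.000438) and by 2.56 ± 0.21 in control (5.89-fold, adjusted p = 0.00031). Ablim3 was higher by 2.73 ± 0.26 in knockdown myotubes (adjusted p = 0.000555). The scaffold gene Neb was higher by 1.49 ± 0.15 in knockdown (adjusted p = 0.000584) and the M-band gene Myom1 by 2.28 ± 0.16 (adjusted p = 0.000208). For Abra, Ablim3 and Myom1 the size in knockdown rests on 1 mM arrays near the dim end of the scale. Tmod1, which caps actin at its pointed end, rose in both. Tmod1 had log2 levels of 7.91 and 7.98 in knockdown and 8.41 and 8.39 in control myotubes at 10 mM, and of 6.35 and 6.47 in knockdown and 7.25 and 7.31 in control myotubes at 1 mM. Its 10 mM arrays were above its 1 mM arrays throughout (1.53 ± 0.12 in knockdown, adjusted p = 0.000275, and 1.12 ± 0.12 in control, adjusted p = 0.00097). Log2 levels of Klhl41 were 8.72 and 8.86 in knockdown and 9.51 and 9.64 in control myotubes at 10 mM, and 6.30 and 6.34 in knockdown and 7.53 and 8.16 in control myotubes at 1 mM. For this ubiquitin ligase adaptor the 10 mM arrays were again the higher ones (2.47 ± 0.21 in knockdown, adjusted p = 0.000327, and 1.73 ± 0.21 in control, adjusted p = 0.00136).

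The lower genes at 10 mM in control myotubes were Flnc, Xirp2 and Trim54, against the direction of the set. Flnc gave log2 levels of 8.85 and 8.76 in knockdown against 9.15 and 9.19 in control myotubes at 10 mM, and 9.14 and 9.29 in knockdown against 9.85 and 9.97 in control myotubes at 1 mM. Control at 1 mM was the highest group (−0.74 ± 0.13 in control, limma adjusted p = 0.00586), and in knockdown myotubes the change of −0.41 was close to the threshold (adjusted p = 0.0519). Xirp2 encodes a Xin-repeat protein that binds actin at attachment sites. For Xirp2 the log2 levels were 4.96 and 5.43 in knockdown and 4.68 and 4.95 in control myotubes at 10 mM glucose, and 5.46 and 5.98 in knockdown and 5.81 and 6.15 in control myotubes at 1 mM. The 10 mM arrays were below the 1 mM arrays in both, and the change was called in control alone (−1.17 ± 0.24, adjusted p = 0.0127). It gave adjusted p = 0.0751 without control replicate 2 at 1 mM and 0.0704 without control replicate 1 at 10 mM. Trim54 encodes MuRF3, a microtubule-associated ubiquitin ligase. Trim54 had log2 levels of 5.55 and 5.94 in knockdown and 5.89 and 6.41 in control myotubes at 10 mM, and of 5.97 and 5.85 in knockdown and 6.92 and 6.81 in control myotubes at 1 mM. Control at 1 mM was again the highest group (−0.72 ± 0.21, adjusted p = 0.0423), a call that was lost under 6 of the alternatives tried, among them no filter on low levels (adjusted p = 0.0657).

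Whether glucose acted differently in knockdown and control myotubes was tested as an interaction. With limma 0 of 50 genes and 0 of 13308 passed the adjusted threshold (0% of all genes). At an unadjusted p under 0.05, 13 of 50 had a more positive change in knockdown than in control (4.86% of all genes) and 1, Tcap, a less positive one (3.02%). The median difference was 0.31 (0.04 over all genes). The smallest p-values were those of Myom1 (1.23 ± 0.23, adjusted p = 0.389), Nrap (0.79 ± 0.18, adjusted p = 0.417) and Pdlim3 (0.81 ± 0.19, adjusted p = 0.417), and none was called. Nrap encodes an actin-binding protein of developing myofibrils. Log2 levels of Nrap were 7.37 and 7.39 in knockdown and 7.34 and 7.53 in control myotubes at 10 mM, and 6.82 and 6.71 in knockdown and 7.60 and 7.62 in control myotubes at 1 mM. The knockdown arrays at 1 mM were below every other array, and the change there against control was −0.85, which was called.

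Members with little signal were set apart by a group mean below a log2 level of 3 (this bound was set with the values in view). These were Myoz1, Myot, Tcap, Cmya5, Mybpc1, Mybpc2, Myl2 and Mylk2, of which Myot and Cmya5 were below it in all 4 groups. Across the set, 42 of 50 genes were called in at least 1 of the 4 knockdown and glucose comparisons (33.2% of all tested genes). The genes called lower in both knockdown comparisons and higher in both glucose comparisons were 9 of 50 (0.263% of all tested genes): Ablim3, Abra, Actc1, Actn2, Lmod2, Myl4, Myom1, Neb and Smyd1. The 8 called in none were Cmya5, Mybpc1, Myl2, Mylk2, Myot, Myoz1, Obsl1 and Tmod4. Below the level tested, Myoz3 lay between 1.82 and 2.87 over the 8 arrays and Myl3 between 1.57 and 2.02. The second probe sets of Xirp2 and Trim54 were dim and were not called in any comparison.

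A list of 30 other sarcomere genes, mainly myosin heavy chains, troponins and tropomyosins, gave 26 tested genes. Of these, 8 were lower after knockdown at 10 mM and 13 at 1 mM, 20 were higher with glucose in knockdown and 14 in control myotubes, and none was called the other way. Their median log2 changes, in the same order, were −0.64, −1.02, 0.96 and 0.56. The embryonic myosin heavy chain gene Myh3 was lower at 1 mM (−2.23 ± 0.15, limma adjusted p = 0.00329). A list of 30 non-muscle, smooth muscle or widely expressed relatives of these genes gave 28 tested. After knockdown, 0 of those were lower and 2 higher at 10 mM (Flna, 0.71, and Myl9, 1.24), and 1 was lower at 1 mM (Ablim1, −1.31). With glucose, 15 relatives were higher in knockdown myotubes, and 12 were higher and 2 lower in control myotubes. No difference between a gene and its relative was tested.

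Markers of other cell states moved as well. Of 10 myotube markers, 5 were lower after knockdown at 10 mM and 7 at 1 mM, and 9 were higher with glucose in knockdown and 7 in control myotubes. The shares over all tested genes were 0.691%, 1.25%, 14.5% and 13.2%, in the same order. Myh3 and Tnnt3 are also in the list of other sarcomere genes above, so those lists partly count the same genes. The summed linear level of the 10 markers was 5186 to 5455 in knockdown and 9119 to 9956 in control myotubes at 10 mM. At 1 mM it was 2817 to 2949 in knockdown and 6258 to 6672 in control myotubes. Of 11 fibroblast and smooth muscle markers, 3 were higher after knockdown at 10 mM (Cnn1, Tagln and Postn) and 0 were called at 1 mM, and 8 and 7 were higher with glucose in knockdown and in control myotubes. Another 4 of the 11 (Dcn, Dpt, Lum and Myh11) had both knockdown arrays below both control arrays at 10 mM and were not called, 3 of them with an unadjusted p under 0.05 in limma. The other 7 had both knockdown arrays above both control arrays (21.6% of all tested genes were below and 24.1% above in this way). At 1 mM, 6 of the 11 were above and 2 below (20.2% and 26.9% of all tested genes). The summed linear levels of the 11 were 12792 to 13015 in knockdown and 10168 to 11159 in control myotubes at 10 mM, and 6433 to 6858 in knockdown and 5236 to 5632 in control myotubes at 1 mM, with Myh11 and Lum below 3 in 3 of 4 groups. These sums add genes that were higher and genes that were lower, and bright genes weigh most in them. Among the bright ones, Postn had mean log2 levels of 11.28 in knockdown and 9.72 in control myotubes at 10 mM. Of 11 undifferentiated myoblast markers, 0 were called after knockdown at either level, and 4 were higher and 2 lower with glucose in both myotube types. Over both myotube types, log2 levels of the proliferation gene Mki67 were 7.78 to 8.38 at 10 mM and 4.83 to 5.77 at 1 mM. Those of Top2a, also a proliferation gene, were 7.82 to 8.31 and 4.95 to 5.56. Hmga2 went the other way, with 6.87 to 7.32 at 10 mM and 9.01 to 9.15 at 1 mM. The part of proliferation in the glucose comparisons was not tested. The sums of the myoblast list add such rises and falls. They were 1428 to 1613 in knockdown and 1870 to 1901 in control myotubes at 10 mM, and 1492 to 1520 in knockdown and 1552 to 1644 in control myotubes at 1 mM. Adipocyte and macrophage lists had 5 of 9 and 3 of 7 markers tested, with 0 called after knockdown, 1 adipocyte marker (Plin4) lower with glucose in both myotube types and 2 macrophage markers (Ptprc and Cd68) lower in knockdown myotubes. Ptprc was dim, with a mean below 3 in 3 of 4 groups. The markers Fabp4, Cidec, Lep, Adgre1, Csf1r, Itgam and Lyz2 were below the level tested. The part of these markers in the changes of the sarcomere genes was not tested.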

How the data were processed

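The deposited table held log2 expression values for 41345 probe sets on 8 arrays; per the submitters' processing notes, the authors used RMA and affy, whose version, with the genome build, is not given in the sources used here. Of the probe sets, 23521 were annotated to 1 gene, 1814 to several and 16010 to none, and several-gene sets were used only to check the knockdown target. Of the gene IDs, 23328 were matched to the RefSeq table (GRCm38.p6). Genes with a mean below the 40th percentile were left out. All 8 arrays were fitted in 1 model with 4 group means by limma 3.58.1 in R 4.3.3 (4 residual degrees of freedom), tested two-sided with Benjamini-Hochberg adjustment over 13308 genes, and called at an adjusted p under 0.05. Errors are standard errors of the fit, from 2 arrays a group, and the number of arrays limits their precision. The procedure was tested on simulated data. Full statistics go to at most the 8 called genes with the smallest p per comparison and direction, to called genes moving against the majority and, where none was called, to the 3 smallest p-values, and of other lists to at most 4 genes. Members, roles and lists were chosen with earlier results of these data known. Alternatives were other filters, centring, eBayes with trend and robust, averaged probe sets, the arrays of 1 contrast alone, the replicate number as a block and each array left out. Deviations of same-numbered replicates correlated between groups at −0.04 to 0.11 (6 pairs of groups, 1 over 0.1), so the numbers were not taken to pair the samples.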

Additional observations from a re-analysis of the deposited data

Results flagged for a closer look

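Nrap was flagged because its arrays were ordered in opposite ways by glucose in the 2 kinds of myotube. In knockdown myotubes both 10 mM arrays were above both 1 mM arrays (log2 change 0.62), as for 34.8% of all tested genes. In control myotubes both 10 mM arrays were below both 1 mM arrays, as for 32.1% of all tested genes. That change in control myotubes was small and not called (−0.17, limma adjusted p = 0.372). The difference between the responses was 0.79 on the log2 scale, and did not pass in limma's interaction test (adjusted p = 0.417).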

How the results depend on the processing

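With 2 arrays per group and 4 residual degrees of freedom, counts of calls moved with the settings more than directions did: of 426 alternative values for 38 named changes, 370 kept direction and call, 56 lost the call and 0 reversed, 41 of the 56 with an array left out. After knockdown at 1 mM, the 24 lower members became 37 with trend and robust eBayes, 4 with only the arrays of the contrast, and 5 to 10 with an array left out, and the 198 genes called in all became 437 with the stricter filter, 598 with trend and robust, 18 with only the contrast's arrays, and 30 to 111 with an array left out. After knockdown at 10 mM, the 11 lower members became 17 with the stricter filter, 24 with trend and robust, 2 with only the contrast's arrays, 7 with the replicate block and 0 to 2 with an array left out, and the 149 genes called in all became 69 with no filter, 291 with the stricter filter, 467 with trend and robust, 6 with only the contrast's arrays, 73 with the replicate block and 0 to 11 with an array left out. Leaving out an array gave 17 to 24 higher and 1 to 3 lower members and 2046 to 2336 genes in all for glucose in control myotubes, and 1903 to 2465 genes in all for glucose in knockdown myotubes. There, 1 member was lower in place of 0 under the stricter filter, centring, trend and robust, and the replicate block. For the interaction, trend and robust called 1 gene in place of 0. Fewer arrays leave fewer degrees of freedom; the cause of the other shifts was not tested.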
